A study of Mus musculus with 7 samples.

Results

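The intermediate filament and lamin genes Nes, Vim, Gfap, Synm, Ina, Nefl, Nefm, Lmna, Lmnb1 and Lmnb2 were followed in sorted cerebellar cells. These 10 genes, of 18193 genes that the array annotation names, were taken as every probe set (a group of short probes against 1 transcript) assigned to exactly 1 of them, which gave 26 probe sets. The Nestin-positive and the Nestin-negative fraction were both sorted from granule neuron precursors, the dividing cells that form the granule neurons of the cerebellum. All mice carried Math1-Cre, the loxP allele of Ptch1 (written Ptc-loxp in the sample labels) and the Nestin-CFP reporter. Math1-Cre, driven by regulatory sequence of a transcription factor gene of this lineage, deletes Ptch1 in cells where it is active. Ptch1 encodes the receptor that holds Hedgehog signalling in check. The genotype is common to both fractions, and no Ptch1 wild-type group is compared here. The extent of the deletion in either fraction was not tested. Nestin-CFP, a fluorescent protein under regulatory sequence of Nes, reports the activity of that sequence and not the Nestin protein. The cells were neither cultured nor treated. Their age is postnatal day 7 on the sample labels, which name the tissue medulloblastoma, and postnatal day 4 in the series description. Replicates 1, 3, 4 and 5 made up the 4 Nestin-positive arrays and replicates 1, 4 and 5 the 3 Nestin-negative ones, with 1 array per sample. The labels do not say that samples came from separate animals, so the tests measure the spread between these samples, which may in part be technical.

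Intermediate filaments are rope-like polymers of the cytoskeleton whose subunits change as a neural cell matures. Neural progenitors and radial glia make vimentin (Vim) together with nestin (Nes), astrocytes add GFAP, and young neurons make alpha-internexin (Ina) and then the neurofilament subunits (Nefl, Nefm and, later, Nefh). The lamins form a related meshwork under the inner nuclear membrane: B-type lamins (Lmnb1, Lmnb2) are made by nearly all cells, while A-type lamins (Lmna) are low in many neural progenitors and rise in stiffer and more mature tissues.

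In outline, the progenitor filament gene Vim was higher in Nestin-positive cells, the neuronal filament genes Ina and Nefl were lower, and no difference was detected for the B-type lamins, with estimates of 0.02 and 0.03 on the log2 scale without regard to replicate number. Nes, which defined the sort, was the 1 member past the threshold of 0.05 (limma, adjusted over all genes) without regard to replicate number. When same-numbered samples were treated as pairs (the replicate block, which in effect leaves out the unpaired Nestin-positive replicate 3), Vim rose and Ina and Nefl fell, so 3 of the 8 tested members other than Nes passed. Over all 11089 genes tested, 0.748% passed without the block and 9.97% with it (3.58% higher and 6.39% lower). The members were proposed with earlier results of these arrays known, so their share is a description.

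The sequences just upstream of 3 members with a difference in this comparison are given first (RefSeq, GRCm38.p6, plus strand in each case, the 250 bases before the annotated start). RefSeq promoter entries matched 7 of the 10 members. Nes and Vim were the higher members, and Ina was a lower one. Capitals mark every match, on either strand, to the TATA box letters TATAAA. They also mark the CCAAT box, spelled CCAAT, the GC box, which was searched as GGGCGG, and an E-box core, which was searched as CAGCTG. Matches to different motifs did not overlap in these windows.
Nes, chr3:87970843-87971092: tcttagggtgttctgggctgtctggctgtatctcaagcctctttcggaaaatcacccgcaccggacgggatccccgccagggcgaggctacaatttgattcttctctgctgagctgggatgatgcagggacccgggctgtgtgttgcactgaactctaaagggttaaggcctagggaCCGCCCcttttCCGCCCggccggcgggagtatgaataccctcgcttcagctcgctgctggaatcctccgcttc
Vim, chr2:13574061-13574310: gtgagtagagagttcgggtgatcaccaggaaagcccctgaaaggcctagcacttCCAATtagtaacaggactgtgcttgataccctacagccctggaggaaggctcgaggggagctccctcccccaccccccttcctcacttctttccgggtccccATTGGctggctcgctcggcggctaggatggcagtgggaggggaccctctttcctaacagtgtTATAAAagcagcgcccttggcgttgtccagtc
Ina, chr19:47014431-47014680: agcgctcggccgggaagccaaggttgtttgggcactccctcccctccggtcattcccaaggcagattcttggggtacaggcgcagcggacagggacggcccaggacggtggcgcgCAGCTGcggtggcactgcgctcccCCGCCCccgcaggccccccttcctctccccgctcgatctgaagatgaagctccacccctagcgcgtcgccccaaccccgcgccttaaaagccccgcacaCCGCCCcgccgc
The Vim window held 1 TATA box match and 2 CCAAT box matches, the Nes window held 2 GC box matches, and the Ina window held 2 GC box matches and 1 E-box core. Of all 32851 windows of this length, 12.4% held the TATA box letters, 33.8% the CCAAT box, 32.7% the GC box and 13.0% the E-box core. Such letters are frequent, and a match is a description of the sequence and not a site of binding.

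Signals are MAS5 intensities, a linear probe set brightness that the authors scaled to the same trimmed mean of 500 on each array. A signal under the median of its array (64.4 to 94.5) is called dim here. Precision is limited by there being 7 arrays. A probe set entered a test if it reached the array median on at least 3 arrays, in any group, which 19 of the 26 member probe sets did. Of the 10 genes 9 thus had a test, on their brightest probe set, and Synm had none. All 12 listed markers of granule neuron precursors reached the array median on every array, with summed signals of 74520.4 to 84896 on Nestin-positive and 76266 to 77438 on Nestin-negative arrays. Without the block limma called 0 of the 12 (3 had an unadjusted p under 0.05). With it Cxcr4, Barhl1, Ccnd1 and Atoh1 rose, 4 of the 12, by 0.58, 0.42, 0.34 and 0.35 on the log2 scale in that order, and none fell.

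Nes encodes nestin and checks the labels only. Its brightest probe set (1418289_at) read 478, 829, 722 and 543 on Nestin-positive replicates 1, 3, 4 and 5, against 179, 174 and 217 on Nestin-negative replicates 1, 4 and 5. The fractions did not overlap. A second Nes probe set (1449022_at) read 292, 774, 657 and 695 on the Nestin-positive arrays, against 29.2, 133 and 120.4 on the Nestin-negative arrays. The third (1453997_a_at) read 67.7, 99.2, 92.2 and 78.8 on the Nestin-positive arrays, of which the value of replicate 1 was dim. It was dim on all 3 Nestin-negative arrays, with 23.1, 5.60 and 16.2. All 3 Nes probe sets thus separate the fractions, but the lowest Nestin-negative values differ by probe set from dim to well above the array median. Against the array median, the fold of the dimmest probe set is bounded at no less than 1.04, so its fitted size has little meaning.

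Vim encodes vimentin, the filament partner on which nestin depends for assembly. Its brightest probe set (1450641_at) read 7902, 13918, 14231 and 11159 on Nestin-positive replicates 1, 3, 4 and 5, against 5006, 7900.4 and 8125 on Nestin-negative replicates 1, 4 and 5. The fractions overlapped at 1 point, as Nestin-positive replicate 1 lay below Nestin-negative replicate 5, but the Nestin-positive sample was higher in each of the 3 same-numbered pairs. The within-pair differences were 0.66, 0.85 and 0.46 on the log2 scale for replicates 1, 4 and 5. Nestin-positive cells averaged 11802 ± 2944 (SD, n = 4), against 7010.5 ± 1739.5 (SD, n = 3) in Nestin-negative cells, a log2 difference of 0.75 ± 0.23 (SE), or 1.68-fold (limma, adjusted p = 0.170). With the replicate block Vim rose 1.57-fold, a log2 change of 0.66 ± 0.10 (SE; adjusted p = 0.00023, limma). The call therefore rests on taking the replicate numbers as pairs.

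The other Vim probe sets gave the same picture. Probe set 1438118_x_at read 7586, 15571, 9351 and 11373 on the Nestin-positive arrays, against 3995, 7498 and 7595 on the Nestin-negative arrays. Probe set 1456292_a_at read 4764, 10187, 6651 and 7370.3 on the Nestin-positive arrays, against 2538, 4452 and 4494 on the Nestin-negative arrays, and here the fractions did not overlap. In both, replicate 1 was the lowest array of its own fraction and Nestin-positive replicate 3 the highest of all. Their log2 differences were 0.79 ± 0.30 and 0.92 ± 0.29 (SE) without the block, and 0.61 ± 0.12 and 0.73 ± 0.10 with it (limma over all kept probe sets, adjusted p = 0.00988 and 0.00153 with the block). Vim signal over the 7 arrays correlated at r = 0.91 to 0.991 between its probe sets, which share the sample and the labelling.

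Other cells of the cerebellum also make vimentin, so the markers of those cells are given beside it. The summed signal of 17 astrocyte and Bergmann glia markers was 17282, 45602, 25436 and 25327 on Nestin-positive replicates 1, 3, 4 and 5, against 13966, 34030.5 and 33482 on Nestin-negative replicates 1, 4 and 5. Like Vim, this sum was lowest on Nestin-negative replicate 1 and low on Nestin-positive replicate 1, and it was highest of all on Nestin-positive replicate 3, as were 2 of the 3 Vim probe sets. Within pairs, the sum was lower in the Nestin-positive sample of pairs 4 and 5 and higher in that of pair 1. Of the 17 markers, 14 to 16 reached the array median on a Nestin-positive array and 15 or 16 on a Nestin-negative array, and Gjb6 was dim on all arrays. Without the block limma called 0 of the 16 tested markers (3 had an unadjusted p under 0.05), with a median log2 difference of -0.14. With it 7 fell and 2 rose, and the median was -0.51. Fabp7 fell by 0.65 ± 0.12 (SE) on the log2 scale with the block, but its log2 difference was -0.08 ± 0.89 without it (limma, adjusted p = 0.980). The 2 that rose with the block were the glutamate transporter gene Slc1a2, by 0.52 ± 0.10, and Gdf10, by 0.70 ± 0.14. Their adjusted p-values were 0.117 and 0.302 without it (limma). The 10 oligodendrocyte lineage markers summed to 6118 to 7927 on Nestin-positive and 7312 to 8525 on Nestin-negative arrays. Mobp and Mog among them were dim on all arrays. Without the block limma called 0 of the 6 tested (2 had an unadjusted p under 0.05). With it Olig1 and Olig2 rose by 0.38 ± 0.11 and 0.68 ± 0.13 (SE), and Cnp fell by 1.09 ± 0.14. Of the 12 pericyte and smooth muscle markers, 3 to 9 reached the array median on a Nestin-positive array and 6 to 10 on a Nestin-negative array, with summed signals of 635 to 2119 against 1459.7 to 9752. The 12 microglia and macrophage markers reached it for 0 to 7 against 9 to 12 genes, and their sums of 345 to 1230.5 lay below those of the Nestin-negative arrays, 2235 to 8271. Of 13 endothelial markers 3 to 12 reached it on a Nestin-positive and 5 to 12 on a Nestin-negative array, with sums of 994 to 3467 against 1227 to 3849.8. Of 11 meningeal fibroblast markers 4 to 7 against 6 to 10 reached it, with sums of 4183 to 6299 against 5577 to 12542. Anpep, Myh11, Pecam1 and Aldh1a2 of these lists were dim on all arrays. These vascular, meningeal and myeloid sums were lower in the Nestin-positive sample of every pair. In such sums the brightest genes weigh most, as Pdgfra (mean signal 3253) did among the meningeal markers. With the block 8 of 9 tested pericyte, 9 of 9 microglia and 5 of 7 meningeal genes fell, and limma called 0 of 12 endothelial genes (5 had an unadjusted p under 0.05), while without it only 2 microglia genes of these lists passed. Fewer cells of a type and less RNA per cell cannot be told apart in such pooled cells. The part of any of these cell types in the values of Vim was not tested.

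The astrocyte filament gene Gfap had 1 tested probe set, which lay above the array median on all 7 arrays but varied. Probe set 1440142_s_at read 146, 304, 228 and 315 on Nestin-positive replicates 1, 3, 4 and 5, against 161, 223 and 139 on Nestin-negative replicates 1, 4 and 5. The fractions overlapped, and of the 3 pairs 2 were higher in the Nestin-positive sample, 1 of them by 0.03 on the log2 scale. The log2 difference of 0.48 ± 0.29 (SE) did not pass (limma, adjusted p = 0.510, and 0.384 with the block). The other Gfap probe sets, 1426508_at and 1426509_s_at, were dim on all 7 arrays, with signals between 33.0 and 68.4, and correlated at r = 0.243 and 0.0841 with the brighter one, so the 3 probe sets do not track each other. Synm encodes synemin, a large filament protein that assembles with vimentin. Both Synm probe sets were dim on all arrays, with 21.4 to 60.5 on Nestin-positive and 25.9 to 54.4 on Nestin-negative arrays.

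Among the neuronal filament genes, Ina encodes alpha-internexin, the first neurofilament-type subunit of young neurons. Its brightest probe set (1448991_a_at) read 2479, 2016, 3327 and 3064 on Nestin-positive replicates 1, 3, 4 and 5, against 4564, 4453 and 4744 on Nestin-negative replicates 1, 4 and 5. Every Nestin-positive array lay below every Nestin-negative array, and the Nestin-negative arrays were close to one another. Probe set 1418178_at read 1855, 1765, 2575 and 2635 on the Nestin-positive arrays, against 3467, 3780.9 and 3780.9 on the Nestin-negative arrays. Probe set 1448992_at read 1460.1, 889, 1777 and 1621 on the Nestin-positive arrays, against 2798, 2341 and 2453 on the Nestin-negative arrays. Neither overlapped, and in all 3 probe sets Nestin-positive replicate 3, the sample without a partner, was the lowest. For the brightest, Nestin-positive cells averaged 2722 ± 589 (SD, n = 4), against 4587 ± 147 (SD, n = 3) in Nestin-negative cells. Its log2 difference was -0.78 ± 0.17 (SE), 1.72-fold lower in Nestin-positive cells, which did not pass (limma, adjusted p = 0.0692). With the block Ina fell by 0.64 ± 0.11 (SE) on the log2 scale (limma, adjusted p = 0.000447), with within-pair differences of -0.88, -0.42 and -0.63 for replicates 1, 4 and 5. With no block and 1 array left out, Ina passed where that array was Nestin-positive replicate 4 (limma, adjusted p = 0.0484), and it did not for each of the other 6 arrays (0.0895 to 0.223).

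Nefl encodes the light neurofilament subunit, the core on which axonal neurofilaments assemble. Probe set 1454672_at read 503, 648, 842 and 908 on Nestin-positive replicates 1, 3, 4 and 5, against 1204, 1409.9 and 1439 on Nestin-negative replicates 1, 4 and 5. Probe set 1426255_at read 509, 687, 740.4 and 742 on the Nestin-positive arrays, against 1215, 1467 and 1253 on the Nestin-negative arrays. Both probe sets separated the fractions, with replicate 1 the lowest of each fraction. For the first, Nestin-positive cells averaged 725 ± 185 (SD, n = 4), against 1351 ± 128 (SD, n = 3) in Nestin-negative cells, a log2 difference of -0.93 ± 0.20 (SE), or 1.91-fold lower in Nestin-positive cells (limma, adjusted p = 0.0734). With the block Nefl fell 1.85-fold, a log2 change of -0.89 ± 0.13 (SE; adjusted p = 8.8e-05, limma), and the within-pair differences were -1.26, -0.74 and -0.66.

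Nefm, the medium neurofilament subunit whose gene lies on chromosome 14 as does Nefl, gave a smaller estimate. Its single probe set (1422520_at) read 311, 498, 509 and 567 on Nestin-positive replicates 1, 3, 4 and 5, against 519, 679 and 587 on Nestin-negative replicates 1, 4 and 5. The fractions overlapped, since Nestin-positive replicate 5 lay above Nestin-negative replicate 1, although the Nestin-positive sample was lower in each pair (-0.74, -0.42 and -0.05 on the log2 scale). The log2 difference was -0.36 ± 0.21 (SE; 95% interval -0.84 to 0.11) and did not pass (limma, adjusted p = 0.488). With the block it was -0.40 ± 0.14 (limma, adjusted p = 0.0805), and with pair 1, 4 or 5 left out as well it was -0.23, -0.40 and -0.58 (adjusted p = 0.601, 0.104 and 0.0249). Without the block, leaving out Nestin-positive replicate 1 took it to -0.18 (adjusted p = 0.696). Whether Nefm differed from Nefl in its change was not tested.

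**Figure D1:**
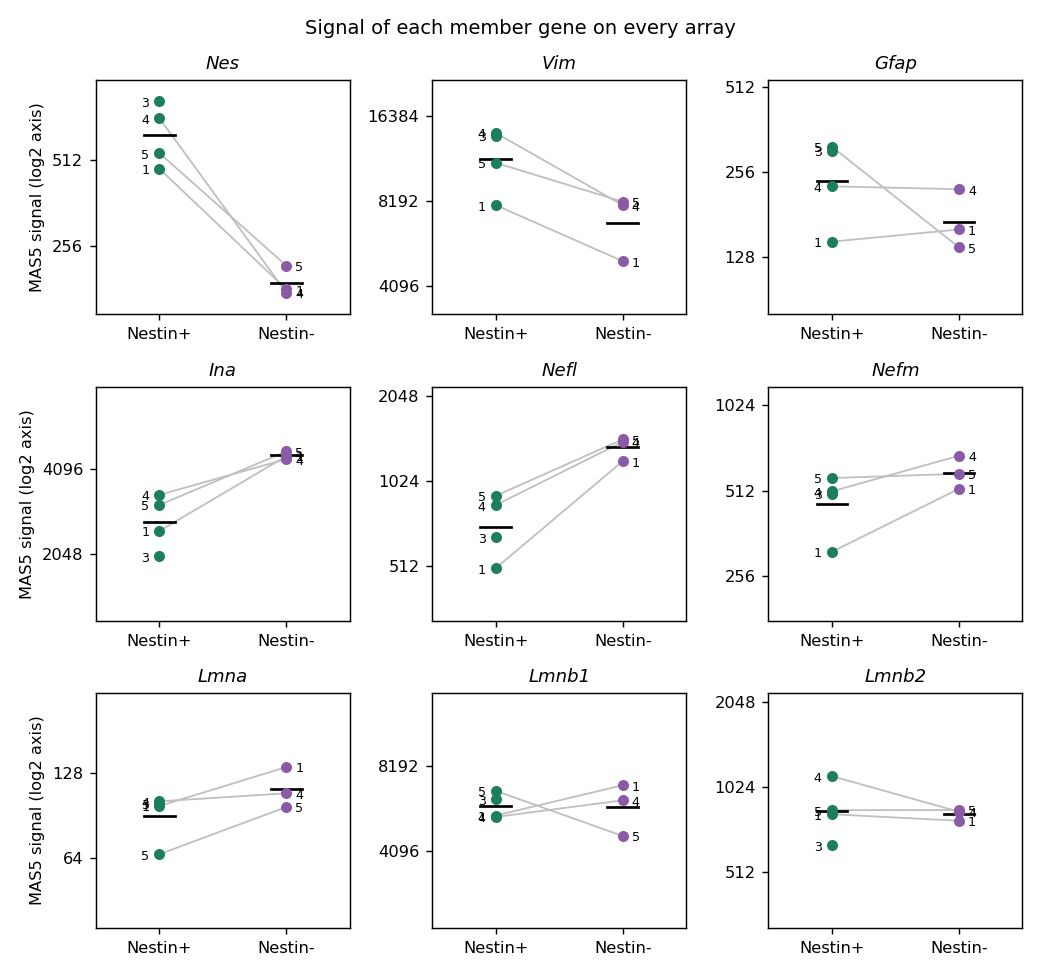
MAS5 signal (log2 axis, each panel spanning the same ratio) of the brightest probe set of 9 member genes on the 4 Nestin-positive and 3 Nestin-negative arrays. Points are arrays with their replicate number, black bars are geometric means, and grey lines join samples of the same number. In every pair Nes and Vim are higher and Ina, Nefl, Nefm and Lmna lower in the Nestin-positive sample, and the lines of Gfap, Lmnb1 and Lmnb2 cross or run nearly flat.

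Genes of granule neuron differentiation were lower in Nestin-positive cells beside the neuronal filaments. The summed signal of the 20 listed genes was 73515 to 84115 on Nestin-positive arrays, against 99395 to 110435 on Nestin-negative arrays, without overlap. All 18 tested genes of that list had negative log2 differences, 4 passed without and 14 with the block, and their median was -0.61, beside -0.03 over all genes. Neurod1, a transcription factor of maturing granule neurons, fell by 0.49 ± 0.11 (SE) on the log2 scale with the block (limma, adjusted p = 0.00656, and 0.0778 without). The microtubule regulator gene Stmn2 fell by 0.53 ± 0.11 with the block (limma, adjusted p = 0.00403, and 0.241 without), and Nfib differed by -0.06 ± 0.10 with it. Markers of GABAergic interneurons, other neurons of the cerebellum, summed to 3279.7 to 3922 on Nestin-positive and 4716 to 5772 on Nestin-negative arrays. Most of that sum was Lhx1, which averaged 3188 in Nestin-positive and 4131 in Nestin-negative cells. All 6 tested interneuron genes had negative log2 differences, and limma called 0 without and 3 with the block. These were Gad1, Tfap2a and Tfap2b. They averaged 42.9, 69.7 and 48.0 in Nestin-positive cells, against 367, 218 and 182 in Nestin-negative cells. Gabra6 of the differentiation list was dim on all arrays. Of the 9 interneuron genes 1 to 5 reached the array median on a Nestin-positive and 4 to 8 on a Nestin-negative array. The part of either cell state in the values of Ina and Nefl was not tested.

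The B-type lamin genes differed little between the fractions. The brighter Lmnb1 probe set (1423521_at) read 5460.0, 6221, 5395 and 6678 on Nestin-positive replicates 1, 3, 4 and 5, against 6985, 6181 and 4623 on Nestin-negative replicates 1, 4 and 5. The fractions overlapped fully, and the pairs disagreed in direction (-0.36, -0.20 and 0.53 on the log2 scale). The log2 difference was 0.02 ± 0.15 (SE; 95% interval -0.32 to 0.36; limma, adjusted p = 0.975), and -0.01 ± 0.13 with the block, so its sign turns. With the block it was -0.28 when pair 5 was left out and 0.17 when pair 1 was. The dimmer probe set (1423520_at) followed it, with r = 0.891 over the 7 arrays and a log2 difference of 0.10 ± 0.27. Genes of G2 and mitosis were higher in Nestin-positive cells beside this. The summed signal of 19 such genes was 69000.1 to 77429.6 on Nestin-positive and 46773 to 60610.5 on Nestin-negative arrays, without overlap. Without the block limma called 0 of the 19 (15 had an unadjusted p under 0.05), and with it 17 rose. Top2a, a topoisomerase gene of dividing cells, rose by 0.49 ± 0.10 (SE) on the log2 scale with the block (adjusted p = 0.00244, and 0.0692 without, limma).

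Lmnb2 read 818, 636, 1116 and 846 (probe set 1448531_at) on Nestin-positive replicates 1, 3, 4 and 5, against 776, 835 and 847 on Nestin-negative replicates 1, 4 and 5. The 3 Nestin-negative arrays lay inside the range of the Nestin-positive ones. The log2 difference was 0.03 ± 0.18 (SE; 95% interval -0.37 to 0.43; limma, adjusted p = 0.961, and 0.16 ± 0.12 with the block, adjusted p = 0.485). The other Lmnb2 probe set (1451849_a_at) lay near the array median, at 87.1 to 106 on Nestin-positive and 74.8 to 124 on Nestin-negative arrays, and did not follow the first (r = 0.109).

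Lmna, which encodes the A-type lamins A and C, read near or below the array median. Of its 5 probe sets, 3 were dim on all 7 arrays. The brightest (1425472_a_at) read 97.6, 99.7, 101 and 65.9 on Nestin-positive replicates 1, 3, 4 and 5, against 134, 108 and 96.8 on Nestin-negative replicates 1, 4 and 5. The fractions overlapped, and in each pair the Nestin-positive value was the lower. The log2 difference of -0.32 ± 0.27 (SE) did not pass (limma, adjusted p = 0.652, and 0.474 with the block). Probe set 1421654_a_at read 59.0, 68.5, 87.9 and 60.6 on the Nestin-positive arrays, against 90.4, 100.1 and 120.0 on the Nestin-negative arrays, and did not overlap, but 3 of these Nestin-positive values and 1 Nestin-negative value were dim. In all, 4 of the 5 Lmna probe sets read lower on the Nestin-positive array of each pair. The share of all probe sets that do so was not computed. The fifth (1426868_x_at), dim on all arrays, differed by 2.55, -0.62 and -1.10 on the log2 scale within pairs 1, 4 and 5. Apart from 1452212_at with 1457670_s_at (r = 0.954), the Lmna probe sets correlated at r = -0.369 to 0.512 over the 7 arrays. The untested probe sets 1452212_at and 1457670_s_at also did not overlap between the fractions, with every value dim. They are outside the share of kept probe sets given below. Differences among signals this near or below the array median are noisy under MAS5, and neither of the 2 tested Lmna probe sets passed in either fit.

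Across probe sets, the members other than Nes had 16 that were tested. Of these 7 did not overlap between the fractions, 1 higher (Vim) and 6 lower (3 of Ina, 2 of Nefl and 1 of Lmna). Of all 23585 kept probe sets 11.3% did not overlap, 4.66% higher and 6.68% lower. When every kept probe set was tested in its own right, limma called 0 of these 16 and 0 in all without the block. At an unadjusted p under 0.05, there were 8 of the 16 and 2283 of all. With the block 8 of the 16 passed, with the 3 of Vim higher and the 3 of Ina and 2 of Nefl lower, beside 4.26% of all kept probe sets (1.26% higher and 3.01% lower). The 3 Nes probe sets, whose difference the sort fixed, are not counted here. The probe sets of a gene read the same RNA, so they are not separate evidence.

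**Figure D2:**
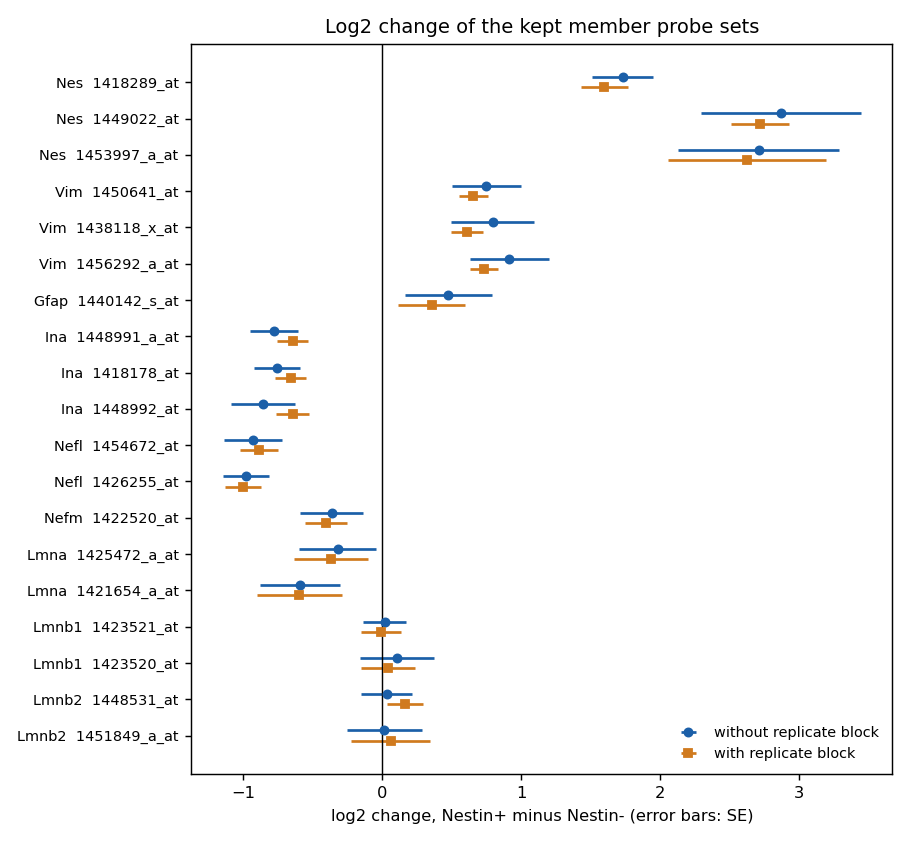
Log2 change (Nestin-positive minus Nestin-negative) of the 19 tested member probe sets, with bars of 1 SE, without (circles) and with (squares) the replicate block. The 3 Vim probe sets lie between 0.61 and 0.92, the 5 of Ina and Nefl at or below -0.64, and those of Lmnb1 and Lmnb2 near 0.

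Whether members changed unequally was asked of 3 pairs of genes, by the within-array difference of their log2 signals. The difference Vim minus Nefm was 1.11 larger in Nestin-positive than in Nestin-negative cells, and its values in the fractions did not overlap (exact two-sided permutation test over 35 splits, p = 0.0286, the smallest this design allows; 0.0857 adjusted over the 3 pairs). It was larger in the Nestin-positive sample of each of the 3 same-numbered pairs, by 1.40, 1.27 and 0.51. The difference Vim minus Gfap was 0.27 larger (exact permutation test, p = 0.40, adjusted 0.40), with 0.80, 0.82 and -0.73 within pairs 1, 4 and 5. Leaving out 1 array took it from 0.09 (without Nestin-negative replicate 1) to 0.54 (without Nestin-negative replicate 5). Lmnb1 minus Lmna was 0.34 larger (exact permutation test, p = 0.229, adjusted 0.343), with 0.10, -0.10 and 1.09 within pairs, and 0.13 without Nestin-positive replicate 5. The same-numbered pairs thus disagreed in direction for Vim minus Gfap and for Lmnb1 minus Lmna. None of the 3 differences passed after adjustment. A difference that alone reaches the smallest p is adjusted to 0.0857, so it could not have passed by itself.

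Among the other genes tested, the 3 whose log2 signal over the 7 arrays was most like that of Nes (Pearson correlation) were Lmo1, Xrcc5 and Bub1b (r = 0.972 to 0.973). Those most like Vim were 2810408I11Rik, Tmem165 and Yae1d1 (r = 0.984 to 0.996), and those most like Nefm were Ubxn7, Sgsm3 and Arfgap2 (r = 0.975 to 0.987). They are the highest of 11089 genes over 7 arrays that share fractions and replicate numbers, and are given as a description.

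Genes related to the members were read in 3 lists. Over all genes tested, 0.748% passed without the block and 9.97% with it (3.58% higher and 6.39% lower). Of 14 other intermediate filament genes, 11 were dim on every array, including the heavy neurofilament gene Nefh, the peripheral neuron filament gene Prph and the simple-epithelium keratin genes Krt8 and Krt18. The 2 tested were Des and Krt10. Des, the gene of the muscle and pericyte filament desmin, read 12.2, 69.6, 32.8 and 79.4 on Nestin-positive replicates 1, 3, 4 and 5, against 58.7, 87.6 and 113 on Nestin-negative replicates 1, 4 and 5. It was dim on 3 Nestin-positive arrays and 1 Nestin-negative array, so no fold is given. It passed as lower with the block (limma, adjusted p = 0.0363, and 0.479 without), and it stands in the pericyte list as well. Krt10 differed by 0.06 ± 0.13 without and by 0.12 ± 0.12 (SE) with the block.

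Of the 18 listed linkers and regulators of filaments 10 were tested, with a median log2 difference of -0.01, and limma called 0 without the block (2 had an unadjusted p under 0.05). With it 3 of the 10 rose, beside 3.58% of all genes tested. Dst, the plakin dystonin that links filaments to other cytoskeletal systems, averaged 2757 in Nestin-positive and 1887 in Nestin-negative cells and rose by 0.56 ± 0.10 (SE) on the log2 scale with the block (limma, adjusted p = 0.00107). The mitotic kinase genes Aurkb and Plk1, whose products phosphorylate vimentin in dividing cells, rose by 0.58 ± 0.11 and 0.37 ± 0.12 with the block (adjusted p = 0.00142 and 0.0446). Both also stand in the list of G2 and mitosis genes. The remaining named genes passed in neither fit. With the block the small heat shock gene Cryab differed by -0.49 ± 0.22, the ubiquitin ligase gene Trim32 by -0.19 ± 0.11 and the keratin-binding protein gene Tchp by -0.21 ± 0.14 (SE), and the vimentin linker gene Plec, outside the rule for named genes, by -0.34 ± 0.21. Without it they differed by -0.62, -0.26, -0.26 and -0.26 in that order.

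Among the nuclear envelope and lamina partners no call was made, with 21 of 24 listed genes tested, a median log2 difference of 0.01, and 0 called by limma in either fit (1 had an unadjusted p under 0.05 without the block and 2 with it). The 5 with the smallest p-values without the block were Narf (-0.39 ± 0.16 SE), a prelamin A-binding protein, Sun2 (-0.29 ± 0.16), which ties the lamina to the cytoskeleton, the CAAX protease gene Rce1 (-0.23 ± 0.14), the LEM-domain gene Ankle2 (0.21 ± 0.13) and the emerin-binding protein gene Tmem43 (0.26 ± 0.16). Their adjusted p-values lay between 0.301 and 0.505.

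**Figure D3:**
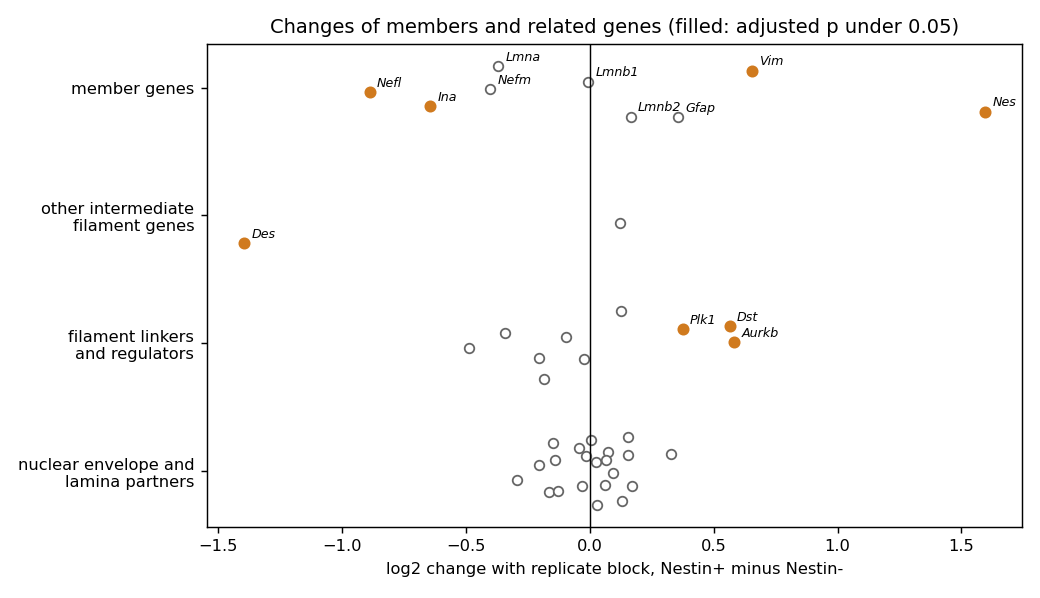
Log2 change with the replicate block (Nestin-positive minus Nestin-negative) of the 9 tested member genes and of the tested genes of 3 related lists, 1 point per gene with vertical scatter for legibility. Filled points passed an adjusted p of 0.05: Nes and Vim higher and Ina and Nefl lower among the members, Des lower, and Dst, Aurkb and Plk1 higher. All 21 nuclear envelope genes are open and lie between -0.30 (Narf) and 0.33 (Tmem43).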

How the data were processed

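RNA of 4 Nestin-positive and 3 Nestin-negative samples, grouped by title, was measured on Affymetrix mouse arrays with biotin labelling, as the labels' protocols state. The deposited values are MAS5 signal intensity, linear and not logged, as named in the submitters' processing notes without a version. As the values show, the authors scaled the mean without the lowest and highest 2% to 500 on each array. MAS5 subtracts mismatch signal, which makes dim values noisy. No detection calls or scanner files entered the work.

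Of 45037 probe sets without 64 controls, the platform annotation gave 34945 exactly 1 gene, 932 several and 9160 none. Symbols were updated by Entrez ID (34741 matched) through a RefSeq table. Log2 intensity was tested without a pseudocount, for probe sets at or above the array median on at least 3 arrays (23585, of which 20162 had 1 gene). The brightest stood for its gene. The test was limma 3.58.1 under R 4.3.3 (eBayes with trend, two-sided, Benjamini-Hochberg over all 11089 genes or all kept probe sets). Tests were checked on simulated data. The members and lists were chosen with earlier results of these data known. Named are all members, in each related list the 5 genes of smallest p and those passing either fit, the 3 genes most like Nes, Vim and Nefm, and up to 3 bright genes of a marker list, with other names chosen after their values were seen.

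Deviations from group means of same-numbered samples correlated over genes with r = 0.71, 0.39 and 0.47 for replicates 1, 4 and 5, each over 0.1, so the numbers were taken to pair the samples, which the labels do not state. Other pairings lay between -0.60 and 0.19, some of them also over 0.1. The pairing was thus inferred from the same arrays that it was used to test. The block rests on 3 pairs, leaves out Nestin-positive replicate 3 in effect, and has 19.8 degrees of freedom after moderation, most from spread pooled over genes (9.78 without it). The 3' to 5' ratio of the actin control was 1.68 to 1.90 on Nestin-positive and 1.74 to 1.99 on Nestin-negative arrays. Alternatives were quantile normalization, other filters, a floor, a pseudocount of 32, probe set means, no trend, fixed and random (statmod 1.5.0) blocks, and leaving out samples or pairs.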

Additional observations from a re-analysis of the deposited data

Results flagged for a closer look

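Dixon's ratio was tested in the 4 Nestin-positive arrays for each of the 26 member probe sets, where chance flags about 1 in 20 groups, and 2 had an array far from the others. The dimmer Lmnb1 probe set (1423520_at) read 1084 on Nestin-positive replicate 4, where the remaining 3 Nestin-positive arrays read 1604 to 1669.9. The brightest Lmna probe set (1425472_a_at) read 65.9 on Nestin-positive replicate 5, which is dim, where the remaining 3 read 97.6 to 101. Neither gene passed in a fit with or without the block.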

How the results depend on the processing

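The directions of Nes, Vim, Ina, Nefl, Nefm and Lmna held under all 19 alternatives, while the number of calls depended on the setting. Genes called numbered 83. They were 22 with quantile normalization, 52 with no filter, 43 with probe set means, 1106 with the replicate block, 854 with a random block, and 695, 1446 and 869 with the block without pairs 1, 4 and 5. Limma called 0 with no trend (1573 at an unadjusted p under 0.05). Leaving out 1 array gave 0 to 93 genes: 10, 40 and 0 without Nestin-positive replicates 1, 3 and 5 and 5, 0 and 1 without Nestin-negative replicates 1, 4 and 5 (1131 to 2045 unadjusted). Member genes called numbered 1 (Nes). They were 4 with the fixed block and 4 with the random block, 4, 4 and 5 with the block without pairs 1, 4 and 5, and 0 with no trend, where 4 had an unadjusted p under 0.05 (limma). Leaving out 1 array gave 0 to 2: the call of Nes was lost without Nestin-positive replicate 5 (adjusted p = 0.0635) or any 1 Nestin-negative array (0.0563, 0.119 and 0.0587 without replicates 1, 4 and 5), and Ina was added without Nestin-positive replicate 4. Member probe sets called by limma were 0 without a block (9 to 12 at an unadjusted p under 0.05), 11 with the fixed block (8 without those of Nes), 9 with the random block, and 11, 10 and 10 without pairs 1, 4 and 5. The replicate block thus changed the calls of Vim, Ina and Nefl, also as a random block (adjusted p = 0.0175, 0.0088 and 0.0053), and of no other member. Nefm passed only with the block without pair 5 (fell by 0.58). Signs turned for Gfap, at 0.48 as reported and -0.055 with the block without pair 5, and for Lmnb1, at 0.02 as reported, -0.0026 with quantile normalization, -0.0069 with the block, and -0.28 with the block without pair 5. With 1 array left out Lmnb1 ran from -0.15 to 0.15 and Lmnb2 from -0.11 to 0.16. The differences of member pairs kept their signs under all 12 alternatives each, though not within every pair. With 1 array left out Vim minus Gfap ran from 0.09 to 0.54, Lmnb1 minus Lmna from 0.13 to 0.44 and Vim minus Nefm from 0.98 to 1.24. The paired value of Vim minus Nefm was 1.06. The exact permutation tests cannot go below p = 0.25 with 3 pairs, or 0.1 and 0.0667 with a Nestin-positive or a Nestin-negative array left out, so they could not pass there. With all 7 arrays, 1 difference that alone reaches the smallest p of 0.0286 (exact permutation test) is adjusted to 0.0857, so it could not pass either. The cause of these shifts was not tested. Dim or near-median signal limits Synm, Lmna and the untested Gfap probe sets, and 7 arrays limit all values.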
